A study of Mus musculus with 18 samples.

Results

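The genes described here are 8 genes of the endothelium, the cell layer that lines blood vessels, and Vegfa, a vessel growth factor made by beta cells. They are Pecam1, Plvap, Kdr, Flt1, Cdh5, Esam, Egfl7 and Eng with Vegfa. They were picked by gene name, as known endothelial genes of pancreatic islets, with earlier results of these data known. All 9 were present among the 10509 genes of the deposited table. The comparison is of islets with and without beta-cell NRK1, the nicotinamide riboside kinase of an NAD salvage route, whose gene is deleted through Ins1Cre. There were 10 NRK1 knockout mice and 8 WT mice, each giving 1 islet library. Both groups ate a high-fat diet, for 12 weeks, and the age, sex and strain are not given in the labels. The Ins1 promoter that drives Cre is active in beta cells, and the sample titles of both groups carry the name Ins1Cre. Whether each WT mouse had the Cre allele is not stated. Whole islets were sequenced at the 3' ends of transcripts, so endothelial cells are a small admixture in each library, and fewer endothelial cells cannot be told apart from less RNA per cell.

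Islets are among the most densely vascularized tissues, and their capillaries are lined by a thin fenestrated endothelium through which insulin reaches the blood. Beta cells secrete VEGF-A, the product of Vegfa, which acts on endothelial cells through the receptor tyrosine kinases VEGFR2 (Kdr) and VEGFR1 (Flt1). VEGFR2 carries most of the growth signal, while VEGFR1 binds VEGF-A tightly with weak kinase activity and is also made as a soluble decoy. Pecam1, Cdh5 (VE-cadherin) and Esam encode adhesion molecules of endothelial junctions. Plvap encodes the protein of the diaphragms that span fenestrae. Eng (endoglin) is a coreceptor for ligands of the TGF-beta family, and Egfl7 is a secreted protein of the vessel wall.

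Promoters are shown for both VEGF receptors and for the ligand, since they encode the ligand and the receptors of the pathway described here. RefSeq promoter entries (GRCm38.p6, 250 bases before to 50 after the start) matched 5 of the 9 members, namely Kdr, Flt1, Egfl7, Eng and Vegfa. Entries for Pecam1, Plvap, Cdh5 and Esam were not matched. Flt1 was added to the promoters shown after its values were seen. Capitals mark GGAA or its reverse complement TTCC, the core that ETS factors of endothelial cells recognise, in Kdr (chr5:75978406-75978705, minus strand) and Flt1 (chr5:147725962-147726261, minus strand). In Vegfa (chr17:46032328-46032627, minus strand, the first of 2 entries) they mark GGGCGG or CCGCCC, the GC box. Each sequence runs 5' to 3' along the gene. The Kdr and Flt1 windows lie wholly within the gene ranges given below, so they do not reach the outermost annotated start. The printed Vegfa window spans that start.
Kdr: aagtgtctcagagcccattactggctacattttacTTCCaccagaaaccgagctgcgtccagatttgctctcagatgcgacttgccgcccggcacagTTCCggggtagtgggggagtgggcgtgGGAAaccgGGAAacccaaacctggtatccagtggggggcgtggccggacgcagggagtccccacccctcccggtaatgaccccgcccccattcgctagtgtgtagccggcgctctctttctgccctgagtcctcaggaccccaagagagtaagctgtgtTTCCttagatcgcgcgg
Flt1: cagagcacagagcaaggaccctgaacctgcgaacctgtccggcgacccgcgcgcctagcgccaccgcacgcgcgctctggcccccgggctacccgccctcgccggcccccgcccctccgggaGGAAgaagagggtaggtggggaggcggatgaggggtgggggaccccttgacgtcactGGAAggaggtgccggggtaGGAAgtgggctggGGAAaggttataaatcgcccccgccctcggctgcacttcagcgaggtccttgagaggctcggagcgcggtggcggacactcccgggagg
Vegfa: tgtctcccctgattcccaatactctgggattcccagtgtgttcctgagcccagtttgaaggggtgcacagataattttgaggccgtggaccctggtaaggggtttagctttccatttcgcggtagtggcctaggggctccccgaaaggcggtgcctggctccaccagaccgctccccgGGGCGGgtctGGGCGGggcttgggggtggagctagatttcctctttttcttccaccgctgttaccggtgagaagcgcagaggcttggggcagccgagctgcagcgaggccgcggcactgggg
The GGAA core, counted on both strands with overlapping matches included, stood 5 times in the Kdr window, 4 times in the Flt1 window and 6 times in the Vegfa window. Of 32851 promoter windows, 96.0% held it at least once and 46.3% at least 4 times, so these counts are common. GGGCGG stood 2 times in Kdr, 3 times in Flt1 and 2 times in Vegfa, against 35.7% of windows with at least 1 match. Only the Flt1 window of these 3 held TATAAA, as 13.6% of all windows did. None of the 3 windows held ACGTG, 1 form of the core bound by hypoxia-inducible factors, while 19.6% of windows held ACGTG. Other forms of that core were not searched. The second Vegfa entry, which is not printed, held ACGTG 1 time. CACCC stood 1 time in Kdr, 1 time in Flt1 and 2 times in Vegfa, against 57.5% of windows with a match. These matches are a description of the letters alone.

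The libraries held 2831137 to 4303680 reads over the listed genes, recovered from the deposited values as whole reads. KO 2 had 320 genes at 0 reads, KO 3 had 227 and WT 7 had 346, against 33 to 150 in the other 15 libraries. Nmrk1, the targeted gene, had a log2 level of 1.99 ± 0.49 in knockout islets and 2.01 ± 0.92 in WT islets (SD, n = 10 and 8), from 3 to 36 reads. The deleted part of Nmrk1 is not given, so its 3' end reads do not check the genotype labels. Ins2 alone took 37.7% to 56.1% of reads in knockout libraries and 33.4% to 45.9% in WT libraries. Ins1, whose promoter names the Cre line, took 2.27% to 5.82% of reads in knockout libraries and 5.42% to 9.40% in WT libraries, a log2 fold change of -0.68 (limma adjusted p = 0.926).

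Vegfa was the most abundant member and Cdh5 the least. Levels are log2 of CPM (reads scaled to library size) with an offset of 0.562, and in 3' end libraries a transcript gives reads at its end whatever its length. Vegfa averaged 195 ± 58.2 CPM in knockout islets (SD, n = 10) and 167 ± 13.4 CPM in WT islets (SD, n = 8), and 95.6% of listed genes had a lower mean log2 level. Next came Egfl7, Kdr and Flt1, at mean log2 levels of 6.62, 6.44 and 6.28 over the 18 libraries. Esam and Pecam1 followed at 5.42 and 5.30. Eng, Plvap and Cdh5 were at 4.72, 4.56 and 4.12, and 50.7% of genes had a lower mean level than Cdh5. Vegfa exceeded Egfl7 in 18 of 18 libraries, and Flt1 exceeded Esam in 18 of 18. Egfl7 exceeded Kdr in 12 of 18, Kdr exceeded Flt1 in 8 of 18 and Esam exceeded Pecam1 in 9 of 18, so these neighbours were not separated. Reads ranged from 29 to 135 per library for Cdh5 and from 457 to 880 for Vegfa. All 8 endothelial genes were thus detected in each library. Summed, the 8 made up 0.0327% to 0.0493% of reads in knockout libraries and 0.0318% to 0.0537% in WT libraries, and the groups overlapped.

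**Figure D1:**
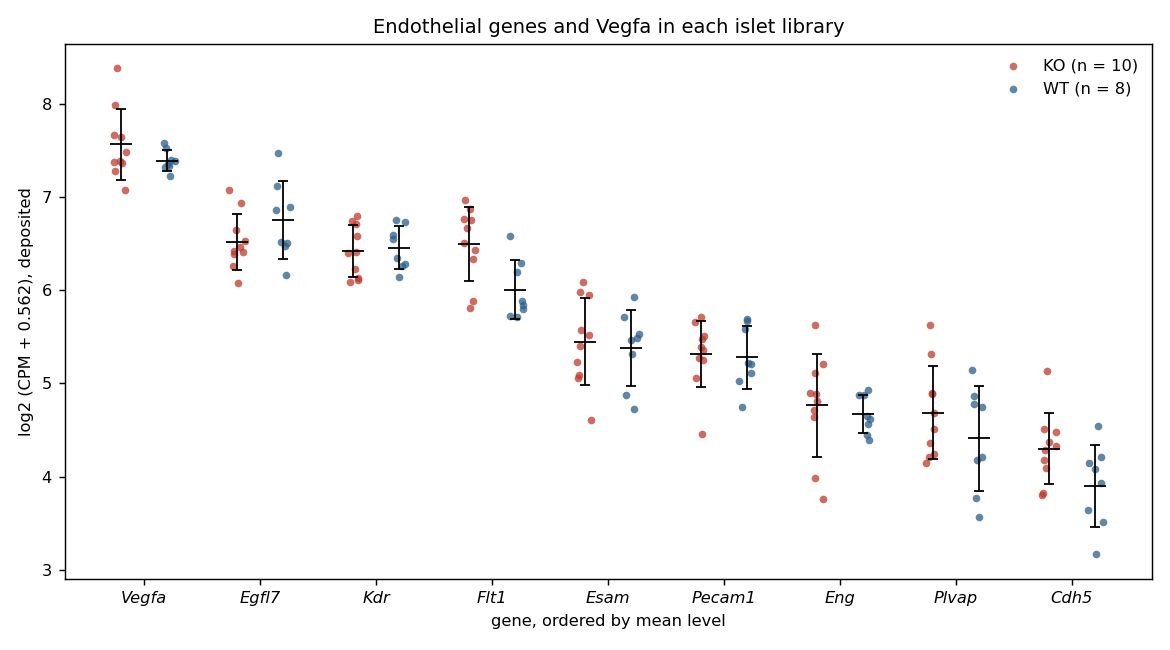
Deposited log2 value (log2 of CPM plus 0.562) of each member in each of 18 islet libraries, knockout (red, n = 10) left of WT (blue, n = 8), genes ordered by mean level. Bars give the mean and SD. Flt1 averaged 6.50 in the knockout and 6.00 in WT, Vegfa was more spread in the knockout, and the groups overlapped for all 9 genes.

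No member differed between knockout and WT islets past the test over all genes. In the limma test 0 of 9 members were called at a Benjamini-Hochberg adjusted p under 0.05, beside 0 of 10509 genes, a background of 0%. At an unadjusted p under 0.05 limma had 567 genes, while voom, fitted to the recovered reads, had 0 calls and 546. Among the 8 endothelial genes 6 had a higher mean in the knockout and 2 a lower one, with a median log2 fold change of 0.08 against -0.0025 over all genes. Flt1 alone of the 9 had an unadjusted p under 0.05.

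Flt1 (chromosome 5, 147561604 to 147726438, GRCm38) had the largest difference of the 9. Its log2 level ran from 5.81 to 6.96 with a median of 6.59 in the knockout, and from 5.71 to 6.58 with a median of 5.86 in WT. Of the 10 knockout libraries 5 lay above the highest WT library, while KO 3 at 5.81 and KO 9 at 5.89 were the lowest knockout libraries and lay within the WT range, so the groups overlapped. The reads were 142 to 455 per knockout library and 126 to 344 per WT library. The log2 fold change was 0.49 (SE 0.17, 95% interval 0.16 to 0.83, limma p = 0.00579, adjusted p = 0.805), a fold of 1.41. An exact permutation test over all 43758 regroupings gave p = 0.0140, two-sided and unadjusted. Animals were numbered in runs of consecutive numbers, though no label calls a run a batch. Within runs that held both genotypes, knockout minus WT was 0.58 (2 against 2 libraries), 0.27 (2 against 2) and 0.69 (3 against 1). In the run at 0.58, KO 3 lay between WT 1 at 5.88 and WT 2 at 5.72, so that difference came from KO 2 at 6.96. The labelled number of KO 1 does not adjoin those of WT 6 and WT 7. Placing KO 1 beside them was an assumption, and knockout minus WT was then 0.47 (1 against 2). The 2 annotated coding transcripts of Flt1 end at different places, and the table holds a single value per gene, so the receptor and its soluble form were not separated.

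Cdh5 (chromosome 8, 104101613 to 104144504) was the next largest. It ran from 3.80 to 5.13 with a median of 4.31 in the knockout and from 3.17 to 4.54 with a median of 4.01 in WT. KO 10 was the highest library and WT 8 the lowest, and the groups overlapped. The log2 fold change of Cdh5 was 0.40 (SE 0.21, limma p = 0.0669, adjusted p = 0.945), from 29 to 135 reads. Within runs of animal numbers the difference was -0.06, 0.36 and 0.25, so the run of KO 2, KO 3, WT 1 and WT 2 did not share the direction, and over the 12 libraries of these runs it was 0.21.

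The other 6 endothelial genes differed by less than their SD within genotype. So did Cdh5, at 0.40 against 0.41. Plvap (chromosome 8, 71497753 to 71511806) ran from 4.14 to 5.62 with a median of 4.60 in the knockout and from 3.57 to 5.15 with a median of 4.48 in WT, a log2 fold change of 0.28 (SE 0.23, limma adjusted p = 0.955). Egfl7 (chromosome 2, 26581083 to 26592682) ran from 6.07 to 7.07 with a median of 6.44 in the knockout and from 6.16 to 7.47 with a median of 6.69 in WT. Egfl7 had the lowest fold change of the 9, at -0.23 (SE 0.16, limma adjusted p = 0.945). Kdr (chromosome 5, 75932827 to 75979072) was close to equal in mean, at a log2 fold change of -0.04. It ran from 6.08 to 6.80 with a median of 6.40 in the knockout and from 6.14 to 6.75 with a median of 6.45 in WT, and its 95% interval of -0.32 to 0.24 bounds the fold between 0.803 and 1.18. Pecam1 (chromosome 11, 106654213 to 106715281) ran from 4.46 to 5.71 with a median of 5.38 in the knockout and from 4.75 to 5.69 with a median of 5.21 in WT, with a log2 fold change of 0.03 and an interval of -0.32 to 0.38. Esam (chromosome 9, 37528089 to 37538319) ran from 4.61 to 6.08 with a median of 5.46 in the knockout and from 4.72 to 5.93 with a median of 5.48 in WT, with a log2 fold change of 0.07 and an interval of -0.33 to 0.47. Eng (chromosome 2, 32646595 to 32682669) ran from 3.76 to 5.62 with a median of 4.85 in the knockout and from 4.39 to 4.93 with a median of 4.64 in WT, with a log2 fold change of 0.10 and an interval of -0.32 to 0.51. The groups overlapped for all 6 of these genes. Plvap was 0.16 without WT 4, 0.17 without KO 2 and 0.05 over the 12 libraries of shared runs, and Egfl7 was -0.13 without WT 7. The sign for Pecam1, Esam, Kdr and Eng turned in some alternatives, whose values are given at the end.

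**Figure D2:**
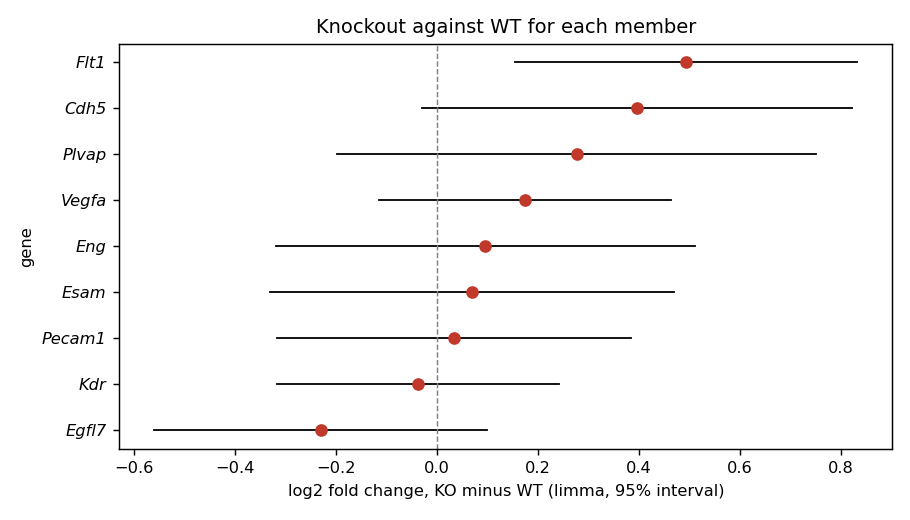
Log2 fold change, knockout minus WT, of each member with its limma 95% interval (10 knockout and 8 WT libraries). The interval of Flt1 spans 0.16 to 0.83, that of Egfl7 -0.56 to 0.10, and all intervals other than that of Flt1 include 0. No member passed the adjusted threshold.

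Vegfa (chromosome 17, 46016993 to 46032377) did not differ in mean past the test, but it was more spread among knockout mice. It ran from 7.08 to 8.38 with a median of 7.43 in the knockout and from 7.22 to 7.57 with a median of 7.37 in WT. Of the knockout libraries 4 lay above the highest WT library and 1 below the lowest, with KO 2 at 8.38 and KO 8 at 7.98. The log2 fold change was 0.17 (SE 0.14, limma adjusted p = 0.955), 0.08 without KO 2 and 0.32 over the 12 libraries of shared runs. Its SD was 0.38 among knockout libraries and 0.11 among WT libraries, a ratio of 3.34. Over all genes the median of this ratio was 1.14, and 0.990% of genes had a larger one than Vegfa. Eng had a ratio of 2.67, with SDs of 0.55 in knockout and 0.21 in WT libraries, and 2.85% of genes had a larger one. For the other 7 members it lay between 0.716 and 1.24. KO 2, with 320 genes at 0 reads, held the highest knockout value of both Vegfa (8.38) and Eng (5.62), so both ratios rest in part on it. The ratio of Eng rests also on KO 10 (3.76) and KO 4 (3.99), which lay below the lowest WT library (4.39). For Eng, 3 knockout libraries lay above the highest WT library. The spreads were noticed in the data, were not computed again without KO 2 and were not tested.

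The balance of both VEGF receptors within a library was also compared. Across the 18 libraries Flt1 and Kdr had an r of -0.22, so the ratio did not take out a shared level. Its difference between genotypes is mainly that of Flt1 (0.49, against -0.04 for Kdr), so the ratio is no separate support. This ratio, 1 of 28 possible among the 8 endothelial genes, was chosen after the values were seen. The log2 ratio of Flt1 to Kdr ran from -0.90 to 0.63 with a median of 0.24 in the knockout and from -0.95 to 0.23 with a median of -0.45 in WT. In 8 of 10 knockout libraries it exceeded the WT mean and in 5 the highest WT library, while KO 3 and KO 9 sat among the lowest values. The knockout mean was 0.08 ± 0.53 (SD, n = 10) and the WT mean -0.45 ± 0.43 (SD, n = 8), which differ by 0.53 (exact permutation p = 0.0378, two-sided, unadjusted). Leaving out 1 library at a time kept the difference between 0.46 and 0.64, but p passed 0.05 in 11 of 18 cases and ran from 0.0102 to 0.0747. Those cases left out KO 1, KO 2, KO 4 or KO 5, or KO 6, KO 8 or KO 10, or, of the WT libraries, WT 1, WT 2, WT 7 or WT 8. Within runs of animal numbers the difference was 0.50, 0.33 and 0.58, and 0.79 with KO 1 placed, by assumption, beside WT 6 and WT 7. Over the 12 libraries of the first 3 runs it was 0.50 (exact permutation p = 0.126).

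**Figure D3:**
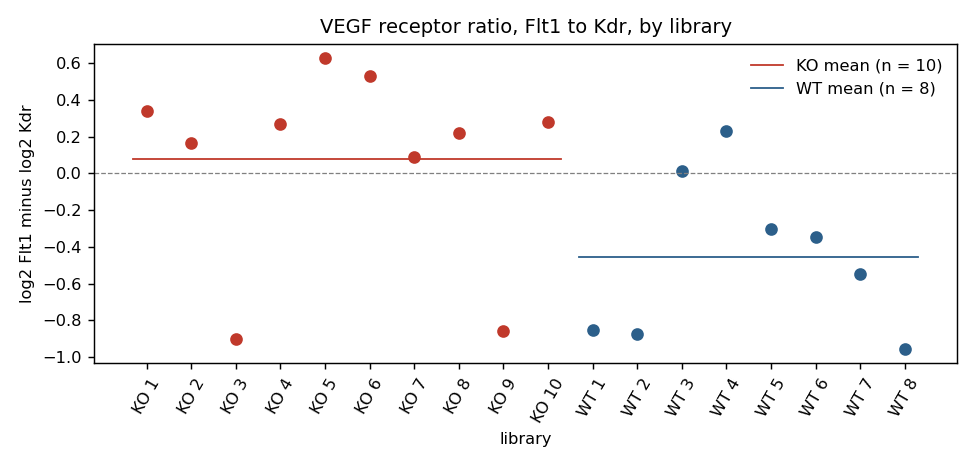
Log2 level of Flt1 minus log2 level of Kdr in each library, knockout (red, n = 10) left of WT (blue, n = 8), with group means as lines. In all, 5 knockout libraries exceed the highest WT value of 0.23, and KO 3 and KO 9 lie near -0.9.

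Other genes of the endothelium and of VEGF signalling had no member that passed. Of 36 further endothelial markers 30 were listed, 18 higher and 12 lower in the knockout, with a median log2 fold change of 0.06 and 0 called. Those of smallest p were Ecscr, an endothelial surface protein, at 1.20 (1 to 48 reads per library), the ETS factor Erg at 0.54, the adrenomedullin receptor gene Calcrl at 0.70 and the sphingosine 1-phosphate receptor S1pr1 at 0.43. Their limma adjusted p ran from 0.797 to 0.945. Of 30 gene symbols of VEGF, angiopoietin, Notch and BMP signalling 24 were listed, 10 higher and 14 lower, with a median of -0.02 and 0 called. The absent symbols include Vegfd and Figf, which name the same gene. Tek and Tie1 are also among the further endothelial markers. The VEGF coreceptor Nrp1 was at 0.77 (27 to 322 reads, limma adjusted p = 0.897) and the endothelial Notch receptor Notch4 at 0.64 (adjusted p = 0.925). Id1, a BMP target, was at 0.44 and the ligand Tgfb1 at 0.59 (limma adjusted p = 0.945 for both). Of 24 hypoxia factors and targets, a class to which Vegfa itself belongs, 20 were listed, 13 higher and 7 lower, with a median of 0.10 and 0 called. The glucose transporter gene Slc2a1 was at 0.91, Pdk1 at 0.42, Ldha at 0.69 and Hif1an, which encodes an inhibitor of HIF, at -0.36, with limma adjusted p from 0.878 to 0.945.

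Basement membrane genes, which endothelial cells supply to the islet, were at a median of 0.20 over 9 listed genes, 6 higher and 3 lower, with 0 called. The laminin genes Lama5 and Lamb1 were at 1.20 and 0.46 and the collagen gene Col4a1 at 0.34 (limma adjusted p = 0.811, 0.925 and 0.945). Lamc1, another laminin gene, was at 0.20. Of 9 mural cell markers 5 were higher, with a median of 0.21 and the pericyte gene Rgs5 at 0.34. Of 3 listed lymphatic markers all were higher, with a median of 0.25, and of these Prox1 is also made by endocrine cells. Fibroblast markers were higher for 8 of 12 (median 0.07), acinar markers for 10 of 17 (median 0.03) and ductal markers for 6 of 8 (median 0.08). Macrophage markers were higher for 4 of 10 (median -0.11) and beta-cell markers for 3 of 10 (median -0.08). Schwann cell markers (3) were at 0.25, erythrocyte markers (2) at 0.34, and the single listed lymphocyte marker Ptprc at 0.71. Alpha-cell markers were higher for 1 of 7 (median -0.62), with Gcg, the glucagon gene, at -0.74 (limma adjusted p = 0.925). In these lists 0 genes were called.

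Adipocyte markers had higher means in the knockout, as Flt1 did. All 3 listed were higher in the knockout, with a median log2 fold change of 0.78 and 0 called. Their summed reads ran from 94 to 398 per knockout library and from 61 to 181 per WT library, and none of the 3 was at 0 in any library. Fabp4, the most abundant of them, is also made by capillary endothelium. It averaged 5.24 ± 0.54 in knockout islets and 4.46 ± 0.36 in WT islets (SD, n = 10 and 8), with a log2 fold change of 0.78 (limma adjusted p = 0.797). Car3 was at 0.86 and Adipoq, the adiponectin gene, at 0.47. The part of adipocyte RNA in the values of Flt1 was not tested.

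Most pairs of the endothelial genes were weakly correlated across mice. Within genotype the SD of a member on the log2 scale was 0.26 for Kdr to 0.52 for Plvap, 2.28 to 5.14 times the Poisson counting SD over the 9 members. Reads can be PCR copies of 1 molecule, so counting error can exceed the Poisson value, and the share of this spread that is biological was not tested. Over the 28 pairs of endothelial genes the median Pearson r across 18 libraries was 0.15, with 16 pairs above 0. The median over all pairs of genes with a median log2 level of at least 3 was -0.0003. In the same libraries the median was 0.86 over 17 acinar markers, 0.74 over 3 adipocyte markers and 0.44 over 10 macrophage markers. It was 0.09 over the 30 other endothelial markers and 0.21 over 9 mural cell markers.

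Of 36 pairs, the 28 and Vegfa with each of the 8, 0 passed a Benjamini-Hochberg adjusted p under 0.05 in a permutation test, and 4 had an unadjusted p under 0.05. Flt1 and Cdh5 had the highest r, at 0.61, with a rho of 0.63 (permutation p = 0.00649, adjusted p = 0.234, for r, and p = 0.00662, adjusted p = 0.238, for rho). Without KO 2 and WT 7, the libraries farthest from the Flt1 median, r was 0.54, and it was 0.47 with genotype means subtracted. Within genotype it was 0.68 over the 10 knockout libraries but 0.20 over the 8 WT libraries. Flt1 and Esam had an r of 0.50 and a rho of 0.51, and Plvap and Kdr had 0.51 and 0.49 (permutation adjusted p = 0.312 for both r). Both receptors, Flt1 and Kdr, had an r of -0.22. Egfl7 and Eng had negative r with the mean of the other 7 endothelial genes, at -0.26 and -0.20, while the remaining 6 had 0.34 to 0.45.

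Vegfa had no common direction of relation to the endothelial genes over the 18 libraries. Its r was positive with 4 of the 8 and negative with 4, from -0.36 with Egfl7 to 0.55 with Eng. By rank its lowest value was with Pecam1, a rho of -0.50 (permutation p = 0.0354, adjusted p = 0.370), where r was -0.30. With the mean of the 8 genes Vegfa had an r of 0.20 but a rho of -0.24. Without KO 2, KO 3 and WT 7 these were -0.41 and -0.38. For Eng rho was 0.44 (permutation p = 0.0232, adjusted p = 0.312, for r, and p = 0.0721, adjusted p = 0.371, for rho), and without KO 10 and KO 2, the libraries farthest from the Eng median, r was 0.20. Leaving out the ends of the Eng range lowers r by itself, and with the mean of each run subtracted r was 0.82 over the 12 libraries of shared runs, which include KO 2 but not KO 10. The 0.82 differs from the 0.55 both in its libraries and in the subtraction of run means, and these were not varied apart. Without subtraction, r was 0.24 without KO 2, KO 3 and WT 7. It was 0.59 over the 10 knockout libraries and 0.04 over the 8 WT libraries.

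**Figure D4:**
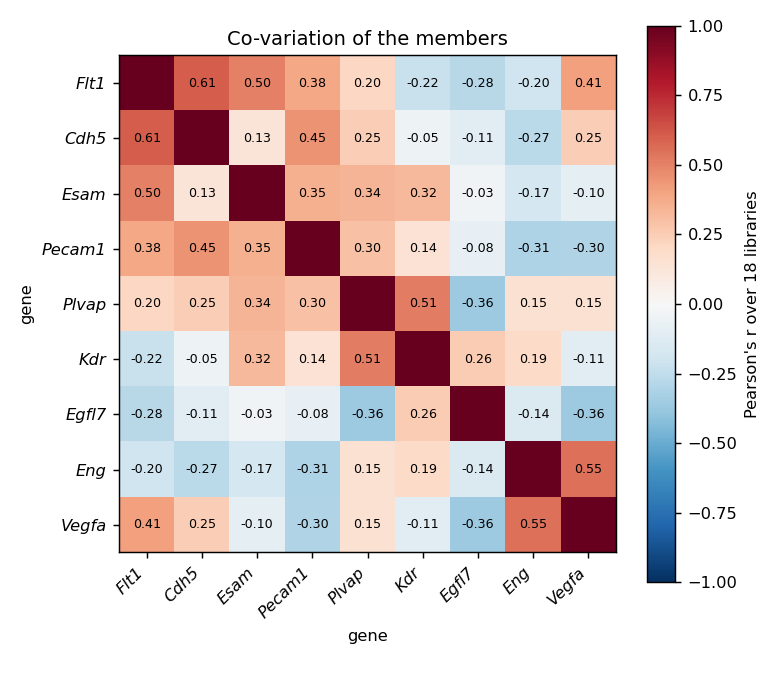
Pearson's r over 18 libraries for each pair of the 9 members (blue negative, red positive, diagonal set to 1). The values run from -0.36 to 0.61, with the highest between Flt1 and Cdh5, and no pair passed the adjusted threshold.

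Some of these values changed with the 3 libraries that had the most genes at 0 reads. In KO 3 and WT 7 Pecam1 was lowest, at 4.46 and 4.75, while Egfl7 was highest of its group, at 7.07 and 7.47. Over all 18 libraries Pecam1 and Egfl7 had an r of -0.08 and a rho of 0.19. Over the 15 libraries without KO 2, KO 3 and WT 7 they had an r of 0.78 and a rho of 0.68 (permutation p = 0.000610, adjusted over the 36 pairs p = 0.0220). There r was 0.81 in 8 knockout libraries and 0.91 in 7 WT libraries, and 0.65 without the 2 farthest libraries. Over these 15 the median of the 28 pairs was 0.09. Vegfa with the 8 genes had a median of -0.42 over the 15 libraries and 0.02 over the 18. Its lowest r over the 15 was -0.65 with Kdr (permutation p = 0.00517, adjusted p = 0.0931). The libraries left out had fewer genes detected, and the part of this in these values was not tested.

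**Figure D5:**
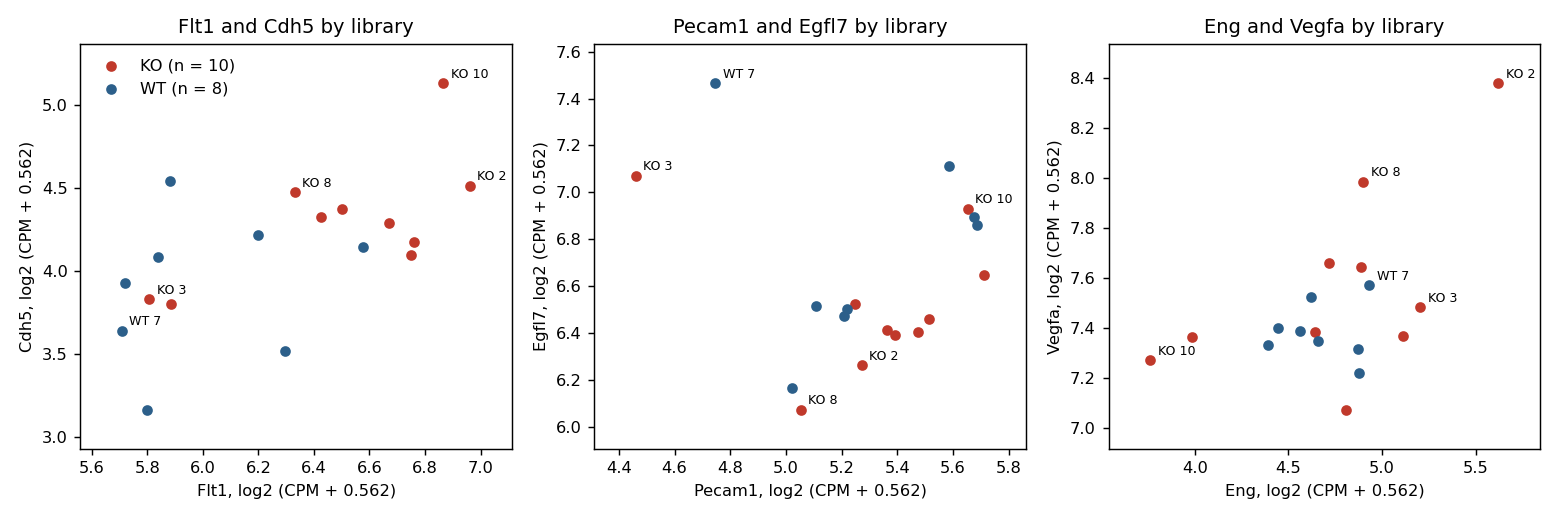
Log2 levels (log2 of CPM plus 0.562) of 3 pairs of members by library, knockout red (n = 10) and WT blue (n = 8), with 5 libraries named. Flt1 and Cdh5 have an r of 0.61, and KO 3 and WT 7 stand apart from the other 16 in Pecam1 and Egfl7. KO 2 is highest in both Eng and Vegfa, and KO 10 is lowest in Eng but not in Vegfa.

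Genes outside the members whose levels followed the mean of the 8 endothelial genes were ranked by Pearson r over the 18 libraries, among 7520 genes with a median log2 level of at least 3. The 8 most alike were Ptprm at 0.84, Apbb2 at 0.83, Syn1 at 0.82, Cd93 at 0.81, Znrf1 at 0.81, Fscn1 at 0.80, Actn4 at 0.80 and P2rx4 at 0.79. Cd93, an endothelial surface receptor, was in the list of further endothelial markers, and its r was 0.85 without KO 2, KO 3 and WT 7. It averaged 5.52 ± 0.33 in knockout islets and 5.30 ± 0.40 in WT islets (SD, n = 10 and 8). Without those 3 libraries the other 7 genes had an r of 0.55 to 0.79. The genes most like Vegfa were Fam133b at 0.89, Naa15 at 0.88, Ankrd12 at 0.87, Zfc3h1 at 0.87 and Thoc2 at 0.86, and 0.66 to 0.77 without the 3 libraries. Naa15, a subunit of the N-terminal acetyltransferase NatA, averaged 7.14 ± 0.50 in knockout islets and 6.77 ± 0.11 in WT islets (SD, n = 10 and 8). These r describe the libraries and carry no test, since the genes were picked for them.

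The 3' ends of 3 members overlap a gene on the opposite strand in the GENCODE annotation of GRCm38. Plvap shares 1819 bases with Gtpbp3, Egfl7 shares 64 with Agpat2 and Eng shares 61 with Fpgs, at the 3' end of both genes each time. The overlap with Agpat2 (26593057 to 26593120) lies past the RefSeq end of Egfl7 printed above, in a longer transcript of the GENCODE annotation. The kit keeps the strand, but the sources used here do not say how reads were assigned by strand, so these 3 values may hold reads of the partner. Across the 18 libraries r was 0.19 for Plvap with Gtpbp3, 0.49 for Egfl7 with Agpat2 and -0.12 for Eng with Fpgs. The partners had fewer reads than the members, 4 to 45 for Gtpbp3, 32 to 96 for Agpat2 and 0 to 42 for Fpgs.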

How the data were processed

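Islet RNA of 18 mice was made into QuantSeq 3' mRNA-Seq FWD libraries with 20 cycles of PCR and sequenced as single reads, per the labels' protocols. STAR 2.5.2, edgeR, HTSeq 0.6.1 and GRCm38 are listed, without roles, by the submitters' processing notes. The authors deposited log2 values. All columns share a lowest value of -0.83, which is 0.562 CPM. After it was subtracted, 100% of values were whole multiples of 1 read within 0.05 reads, 1 read being worth 0.238 to 0.411 CPM. Depth is the sum of these reads. Labels give no batch or pairing, and libraries are numbered by accession within a group. None of the 73 pairs of libraries of a group agreed within Poisson sampling noise (chi-square per degree of freedom 6.01 to 41.3), so none was treated as 1 library deposited more than once; PCR copies inflate this measure. Nothing says whether they came from separate litters or days, so p-values measure the spread between these libraries.

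Knockout and WT were compared with limma 3.58.1 in R 4.3.3 (trend, no covariate, two-sided) over all 10509 genes, without a filter. Correlations used 100000 permutations, adjusted over 36 pairs. Promoters and positions came from RefSeq (10508 of 10509 identifiers matched). Named genes were every member, up to 4 genes of smallest p in lists near the members and the genes of highest r. Members, lists and alternatives were chosen with earlier results of these data known. Counts recovered from the deposited values were tested with voom, with the authors' own scaling in place of TMM. The other alternatives are given at the end.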

Additional observations from a re-analysis of the deposited data

Results flagged for a closer look

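Pecam1 in KO 3, at a log2 value of 4.46, stood apart from the other 9 knockout libraries, which ran from 5.05 to 5.71. The gap to its nearest neighbour was 0.474 of the range of the group, above Dixon's 95% critical value of 0.466 for 10 samples. In all 18 groups of values (9 genes in 2 genotypes) this was the only one past its critical value, and chance flags about 1 in 20 groups. KO 3 had 227 genes at 0 reads and 55 reads of Pecam1, and the part of either in the value was not tested. Cdh5 in KO 10, at 5.13, reached 0.465 and was not past the critical value.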

How the results depend on the processing

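The count of genes called and the count of members called were each 0 under all 32 other settings, leave-one-out and an adjusted p under 0.10 included. Of 288 member values under other settings 272 kept their sign. These 272 include settings that could not turn a sign, because they leave each member's fold change as in the main test. Such settings were having no filter, leaving out genes of low level, limma without its trend and the exact permutation test. Flt1 ran from 0.44 to 0.58, with limma adjusted p from 0.440 to 0.991. Cdh5 ran from 0.18 to 0.49, Plvap from 0.052 to 0.38, Vegfa from 0.083 to 0.32 and Egfl7 from -0.31 to -0.096. The sign turned only for values near 0, and the cause was not tested. Without KO 2, KO 3 and WT 7 Esam was -0.059 and Eng -0.029, and with sample weights Esam was -0.013. Over the 12 libraries of runs that hold both groups Pecam1 was -0.14 without a run term and -0.15 with it, where Kdr was 0.043. With KO 1 placed, by assumption, beside WT 6 and WT 7 and run fitted (15 libraries), Pecam1 was -0.062. Leaving out 1 library at a time gave -0.043 to 0.13 for Pecam1, -0.024 to 0.16 for Esam and -0.083 to 0.0046 for Kdr. The correlated pairs called were 0, and 1 without KO 2, KO 3 and WT 7 (Pecam1 with Egfl7). They were 0 to 1 in leave-one-out, the 1 being without WT 1 (Flt1 with Cdh5, permutation adjusted p = 0.0482). Leaving Ins1, Ins2 and the acinar markers out of the library size, median centring and quantile normalization turned no sign. Having no filter gave the main values. No paired analysis was possible because the labels carry no replicate numbers that pair mice. Counts of 29 to 135 reads limit the precision for Cdh5.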

Other observations

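Across the 18 libraries the 30 further endothelial markers followed the mean of the 8 endothelial genes unevenly. Pearson r was 0.81 for Cd93, 0.73 for S1pr1, 0.66 for the sialomucin gene Podxl, 0.63 for Mmrn2 and 0.55 for Vwf. At the other end it was -0.45 for the caveolar gene Cavin2, -0.38 for the tight junction gene Cldn5 and -0.30 for Gpihbp1, which anchors lipoprotein lipase on capillaries. Podxl, Vwf, Cavin2 and Cldn5 had median log2 levels of 2.34, 1.15, 2.06 and 1.42, below the 3 required for the ranking above. Cd93, S1pr1, Mmrn2 and Gpihbp1 were above it, at 5.44, 3.75, 3.91 and 4.87. The part of counting noise in the r of the low genes was not tested. All these genes were named after their values were seen, and the values carry no test. Esm1, a marker of VEGF-activated endothelium, was the most abundant of the 30, at a median log2 level of 6.64, and had a log2 fold change of -0.026 (limma adjusted p = 0.992).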
